A study of Mus musculus with 12 samples.

Results

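Interferon-stimulated genes were followed in primary mouse adult fibroblasts (MAFs) exposed to thymol or to its vehicle. The set was a list of 9 gene symbols, Ifit1, Ifit2, Ifit3, Isg15, Irf7, Irf9, Stat2, Bst2 and Oasl2, and a gene was taken when the expression table held its symbol. Of the 9 listed genes, 8 were measured among the 10697 genes of the table, and Irf7 was not analysed here. The table lists genes above a minimum read number in at least 6 libraries of either group, so the 8 genes are those that were high enough to be listed.

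Thymol, a plant phenol, had been given to the cells because of its effects on mitochondria, and the transcriptome was read to find which programmes differ after exposure. The cells were WT and came from C57BL6/j mice, as outgrowths of tissue pieces on coated dishes in high-glucose DMEM with a high content of fetal bovine serum. In 6 libraries the medium held 100 µM thymol dissolved in DMSO for 24 h, and in 6 control libraries it held the same volume of DMSO for the same time, so both groups had been exposed to DMSO. Age and tissue of origin were not given in the sources used here, and nothing in the labels says that the libraries of a group came from separate cultures or animals, so each p-value measures the spread between these libraries, which may be technical.

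Type I interferons bind a receptor at the cell surface and activate the kinases JAK1 and TYK2, which phosphorylate STAT proteins, STAT2 among them. STAT2 acts with IRF9 in a complex, ISGF3, that binds the interferon-stimulated response element (ISRE) in the promoters of its target genes. The targets include antiviral effectors and the pathway's own factors, STAT2 and IRF9 among them, and fibroblasts keep a low basal output of the pathway without infection.

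The core of the ISRE is a pair of GAAA blocks separated by any 2 bases, GAAANNGAAA. Promoter windows running from 250 bases before to 50 bases after each annotated start were taken from RefSeq on GRCm38.p6 and searched on both strands, and all 8 measured genes had at least 1 window. An exact match of the core was found for 5 of the 8 genes, Stat2, Ifit1, Ifit3, Isg15 and Bst2, and lay in 5 of the 10 windows of the set. The same match occurred in 3.43% of all 32817 promoter windows and in 2.94% of the 10965 windows of genes in the table. No match lay in the windows of Irf9, Ifit2 or Oasl2, which says only that these letters are not in those windows.

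Stretches of 80 bases around the matches are shown because they carry the element by which the set is known, with the bases of the core matches in capitals and all sequences written 5′ to 3′ on the strand of the gene. A match on the opposite strand reads as TTTC blocks. The stretches lie at chr10:128270248-128270327 (+) for Stat2, chr19:34640759-34640838 (+) for Ifit1, chr19:34583355-34583434 (+) for Ifit3, chr4:156200846-156200925 (-) for Isg15 and chr8:71537555-71537634 (-) for Bst2.
Stat2: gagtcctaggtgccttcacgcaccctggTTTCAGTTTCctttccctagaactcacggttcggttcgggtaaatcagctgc
Ifit1: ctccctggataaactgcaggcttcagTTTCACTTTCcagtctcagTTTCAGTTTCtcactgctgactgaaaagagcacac
Ifit3: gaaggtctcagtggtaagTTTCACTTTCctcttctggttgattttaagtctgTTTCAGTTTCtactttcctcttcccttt
Isg15: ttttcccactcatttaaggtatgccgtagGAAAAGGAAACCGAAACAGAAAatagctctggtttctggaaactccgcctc
Bst2: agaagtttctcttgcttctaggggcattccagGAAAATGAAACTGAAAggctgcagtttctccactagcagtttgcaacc

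Ifit1 and Ifit3 each held 2 separate matches with the same letters, TTTCACTTTC followed by TTTCAGTTTC, and the single match of Stat2 was also TTTCAGTTTC. Isg15 held 3 overlapping matches and Bst2 held 2 overlapping matches, read on the strand of the gene. Counted from the annotated start, with bases before it negative, the matches began at -222 in Stat2, at -104 and -85 in Ifit1, and at -156 and -122 in Ifit3. In Isg15 they began at -78, -72 and -66, and in Bst2 at -130 and -124. The palindromic site of STAT dimers, TTCNNNGAA, matched for 2 of the 8 genes, Ifit2 and Bst2, and overlapped the ISRE core match in Bst2. It occurred in 8.29% of all windows and in 6.56% of the windows of genes in the table.

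**Figure D1:**
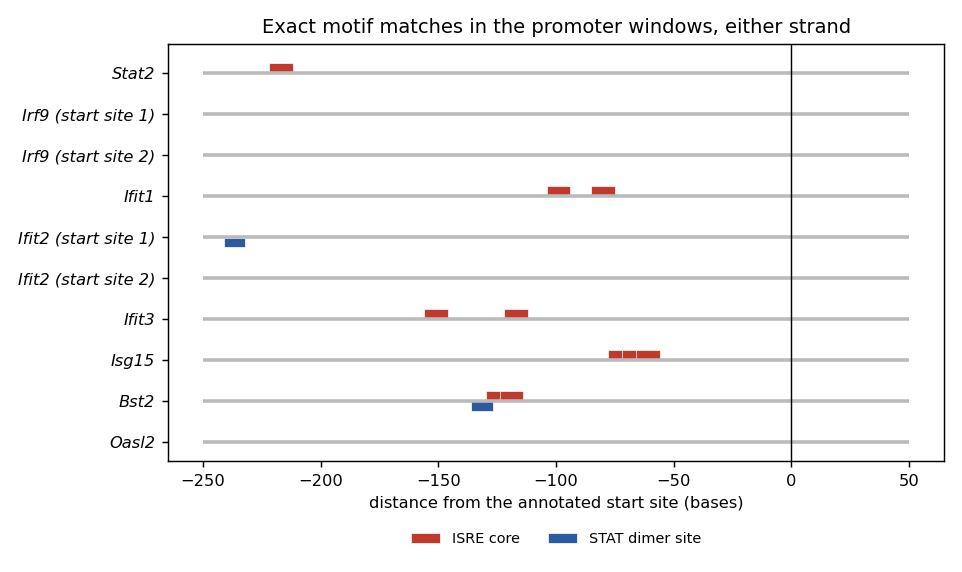
Positions of exact matches of the ISRE core (red) and of the STAT dimer site (blue) in the promoter windows of the 8 measured genes, as distance in bases from the annotated start, with each grey line 1 window. The ISRE core was matched in 5 of the 8 genes, closest to the start in Isg15.

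Expression was measured by QuantSeq 3′ mRNA sequencing, in which about 1 read is made per transcript near its 3′ end, so levels of different genes can be set side by side without a correction for length. Values are log2 CPM, the logarithm of reads scaled to a common library size, and each library held 5435985 to 9049796 reads. Differences are given as thymol minus DMSO on the log2 CPM scale with their standard error (SE), the fold, and the p-value of a limma fit over all genes, adjusted by the Benjamini-Hochberg method over the 10697 genes with a threshold of 0.05. Fibroblast markers were high in all libraries, with 8 of 10 measured at a median level of 8.48 log2 CPM. Their summed levels were 8457 to 10348 CPM over the 12 libraries. All 14 macrophage markers were also measured, at a median level of 8.18 and summed levels of 17605 to 21265 CPM over the 12 libraries, so the libraries labelled fibroblasts also carried macrophage transcripts. Lymphocyte and epithelial markers were not measured (0 of 8 and 0 of 5). As these are bulk libraries, fewer cells of a type and less RNA per cell cannot be told apart. Whether the reads of the 8 measured interferon-stimulated genes came from fibroblasts or from macrophages was not tested.

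None of the 8 measured interferon-stimulated genes passed the threshold between thymol and DMSO. Stat2, with a mean of 4.17 log2 CPM in thymol against 4.58 in DMSO, had the smallest p-value of the set, and Ifit3 had the largest positive difference. The transcription factors and Isg15, Bst2 and Oasl2 were lower with thymol, by 0.10 to 0.41 on the log2 scale, and the 3 Ifit genes were higher, by 0.23 to 0.45, none of them past the threshold. Across all genes, limma called 238, or 2.22%, so 0 of 8 is near what that share gives for 8 genes. By an unadjusted p under 0.05, 1 of the 8 genes was called, Stat2 (12.5%), beside 11.8% of all genes (1261 genes). Voom on the recovered reads called 0 of the 8 genes after adjustment and 1 before. Among all genes it called 238 after adjustment. In no member did the libraries of the groups separate without overlap (0 of 8), which happened for 1.68% of all genes (180 genes).

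**Figure D2:**
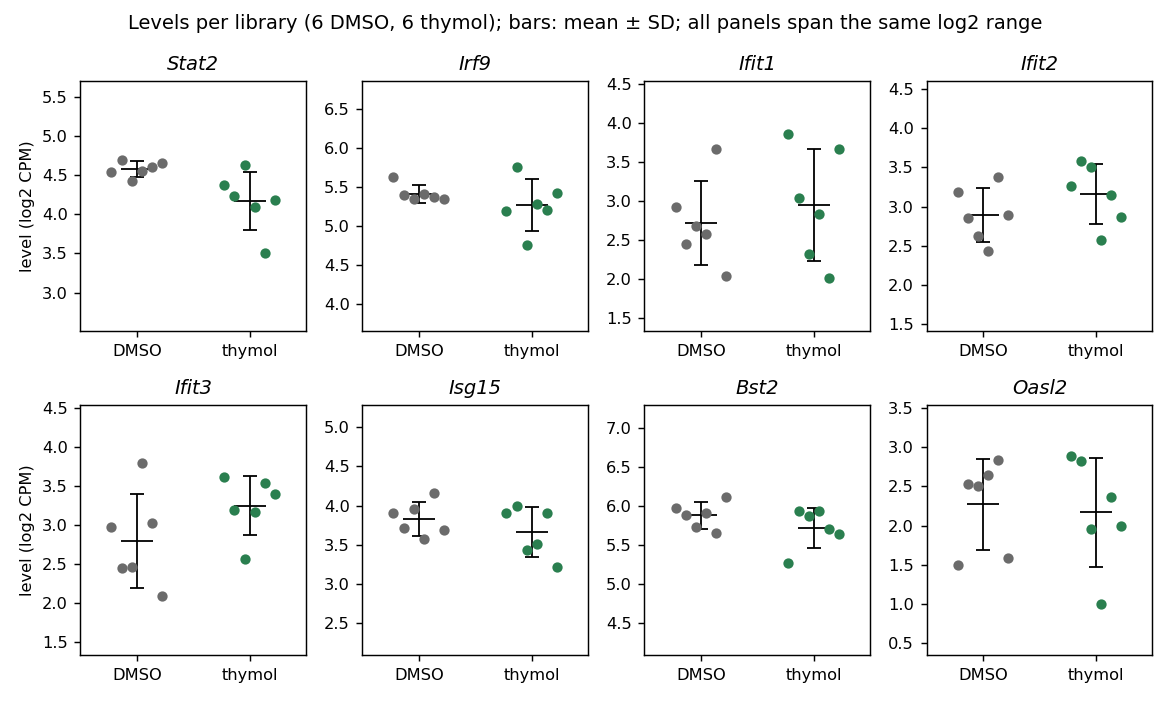
Level of each measured interferon-stimulated gene in log2 CPM (y axis) in every library of the thymol and DMSO groups, each point 1 library, with the mean and SD of each group. In every gene the ranges of the groups overlapped, and the pooled SD was highest in Ifit1 and Oasl2.

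Stat2 encodes the STAT protein that is specific to type I and type III interferon signalling, and lies on chromosome 10 at chr10:128270559-128292849 (+) on GRCm38. Its level in the DMSO libraries ran from 4.42 to 4.70, with a median of 4.58 log2 CPM, and in the thymol libraries from 3.51 to 4.63 with a median of 4.20. In 5 of the 6 thymol libraries Stat2 was below every DMSO library, and thymol replicate 3 was within the DMSO range. The difference was -0.41 (SE 0.15), or 0.75-fold (95% interval 0.61 to 0.93), with adjusted p = 0.197 in limma and 0.104 to 0.779 over the alternative settings. In the thymol libraries the SD was 0.37, or 2.80 times what counting error alone gives, and in DMSO it was 0.10, or 0.87 times. Without thymol replicate 5, the lowest of them, the difference was -0.28, and without thymol replicate 3 it was -0.50. The summed level of the fibroblast markers was lower in the same libraries, at 8457 to 9185 CPM in thymol against 9277 to 10348 CPM in DMSO. These sums did not overlap, which happened for 1.68% of all single genes. A sum is carried by its most abundant genes, and the median difference of the 8 markers was -0.09. Of the 8 markers, 2 passed the threshold as lower and 0 as higher, beside 2.22% of all genes in both directions. Whether the fibroblast markers have a part in the difference of Stat2 was not tested.

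Irf9 encodes the DNA-binding subunit of ISGF3 and lies at chr14:55603571-55610030 (+), where its first 123 bases overlap the end of Rnf31 on the same strand. Its level ran from 5.34 to 5.63 log2 CPM in DMSO (median 5.39) and from 4.76 to 5.75 in thymol (median 5.24). In 4 thymol libraries it was below every DMSO library, and in 1, thymol replicate 2, above every one of them. The difference was -0.15 (SE 0.12), 0.90-fold (95% interval 0.77 to 1.06), with adjusted p = 0.704 in limma. It was -0.05 without thymol replicate 3 and -0.25 without thymol replicate 2, the lowest and the highest thymol library. The SD was 0.33 in thymol and 0.11 in DMSO. A higher SD in thymol was also seen in Stat2 and in every other measured member except Ifit3, with 0.38 in thymol and 0.60 in DMSO.

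The Ifit genes code for tetratricopeptide-repeat proteins that bind viral RNA and stop its translation, and the 3 lie together on chromosome 19. Ifit1 is at chr19:34640871-34650009 (+), Ifit2 at chr19:34550694-34576419 (+) and Ifit3 at chr19:34583531-34588731 (+). The near-identical neighbour of Ifit3, Ifit3b, was not analysed here, and reads that match both copies may be missing from the count of Ifit3. Ifit3 ran from 2.09 to 3.79 log2 CPM in DMSO (median 2.72) and from 2.57 to 3.61 in thymol (median 3.29). In 3 DMSO libraries it was below every thymol library, and in 1, DMSO replicate 4, above every one of them. The difference was 0.45 (SE 0.25), 1.36-fold (95% interval 0.96 to 1.93), with adjusted p = 0.512 in limma, and was 0.30 without DMSO replicate 6 and 0.64 without DMSO replicate 4.

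Ifit2 was between 2.43 and 3.38 log2 CPM in DMSO (median 2.87) and between 2.57 and 3.58 in thymol (median 3.20). In 2 thymol libraries it exceeded every DMSO library, and the rest overlapped. Its difference was 0.26 (SE 0.23), 1.20-fold (95% interval 0.87 to 1.67), with adjusted p = 0.753 in limma. Leaving out DMSO replicate 4 gave 0.17, and leaving out thymol replicate 4 gave 0.38. Ifit1 was between 2.04 and 3.66 in DMSO (median 2.63) and between 2.01 and 3.86 in thymol (median 2.94), so the groups covered almost the same range. Its difference was 0.23 (SE 0.28), 1.17-fold (95% interval 0.79 to 1.73), with adjusted p = 0.842 in limma. It was 0.05 without thymol replicate 1, 0.09 without replicate 6 of either group, 0.36 without thymol replicate 3 and 0.42 without replicate 5 of either group. In the odd-numbered libraries alone it was -0.36 and in the even-numbered ones 0.82, neither past the threshold. Reads were few: Ifit1 had on average 51.7 reads in thymol and 47 reads in DMSO libraries.

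Isg15 encodes a ubiquitin-like modifier that is attached to proteins during the antiviral response, and lies at chr4:156199424-156200818 (-). Its level was between 3.57 and 4.16 log2 CPM in DMSO (median 3.81) and between 3.22 and 4.00 in thymol (median 3.71). In 3 thymol libraries it was below every DMSO library, and in the others within the DMSO range. The difference was -0.17 (SE 0.18), 0.89-fold (95% interval 0.69 to 1.15), with adjusted p = 0.81 in limma. Without thymol replicate 6, the lowest library, it was -0.08, and without DMSO replicate 5, the highest, -0.11. Leaving out thymol replicate 2 gave -0.24.

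Bst2 encodes tetherin, which holds budding viruses at the cell membrane, and lies at chr8:71534255-71537456 (-). It had the highest level of the set, from 5.65 to 6.12 log2 CPM in DMSO (median 5.90) and from 5.27 to 5.94 in thymol (median 5.79). In 2 thymol libraries it was below every DMSO library and in 2 DMSO libraries above every thymol library. The difference was -0.16 (SE 0.10), 0.90-fold (95% interval 0.78 to 1.04), with adjusted p = 0.614 in limma. It was -0.06 without thymol replicate 1, the lowest library, and -0.20 without DMSO replicate 5.

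Oasl2, a member of the oligoadenylate synthetase family, lies at chr5:114896936-114912234 (+) and was the lowest of the set, at a mean of 30.5 reads in thymol and 33.7 reads in DMSO libraries. It ran from 1.50 to 2.84 log2 CPM in DMSO (median 2.51) and from 1.00 to 2.89 in thymol (median 2.17), with wide overlap. The difference was -0.10 (SE 0.33), 0.93-fold (95% interval 0.59 to 1.47), with adjusted p = 0.963 in limma. Its sign turned when a single library was left out, to 0.14 without thymol replicate 4 and to 0.02 without DMSO replicate 5, and it was -0.25 without DMSO replicate 1.

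**Figure D3:**
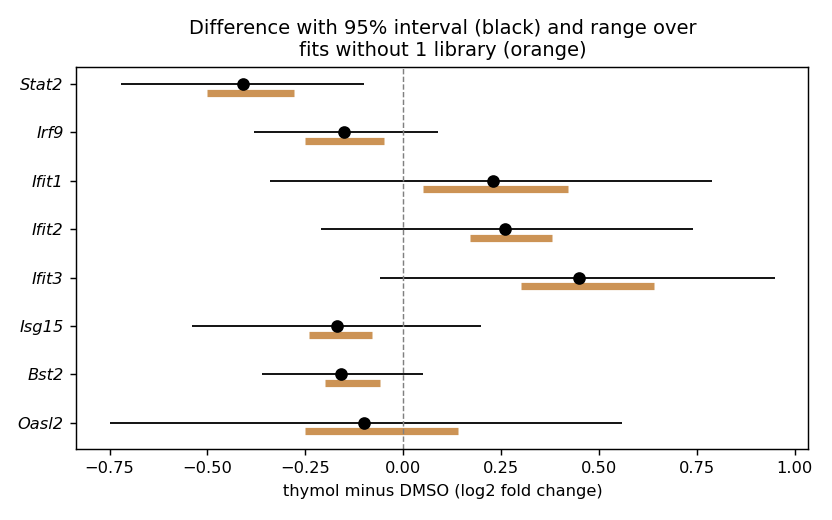
Difference of each measured interferon-stimulated gene, thymol minus DMSO, on the log2 scale (x axis), with points for the estimate, black lines for the 95% interval and orange bars for the range over fits that leave out 1 library. The interval of Stat2 lies below 0, and the other 7 include 0.

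Ordered by level over the 12 libraries, Bst2 came first at 5.80 log2 CPM, followed by Irf9 (5.34), Stat2 (4.38), Isg15 (3.75), Ifit2 (3.02), Ifit3 (3.02), Ifit1 (2.84) and Oasl2 (2.22). The median gene of the table had 5.02, so only Bst2 and Irf9 were above it. In the DMSO libraries the ranges of Bst2, Irf9, Stat2 and Isg15 did not overlap with one another, whereas those of the 3 Ifit genes and Oasl2 did, and Ifit1 and Ifit3 also reached into the range of Isg15.

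The direction of the members was split, with 5 lower and 3 higher in thymol, and the median difference was -0.12. Over all genes the median difference was 0.0026 and 49.1% of genes were lower. The median size of the difference, without its sign, was 0.20 in the members and 0.10 in all genes, and 6 of the 8 members were below the median level of the table. Averaged over the 8 genes, the level was 3.79 ± 0.22 (SD, n = 6) in thymol and 3.80 ± 0.18 (SD, n = 6) in DMSO, a difference of -0.005.

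Among genes of similar level, Ifit1 varied more than most between libraries of 1 group. Its pooled within-group SD was 0.64 log2 units, against a median of 0.42 for genes within 0.25 of its level, and was above 95.6% of them. The SD of Irf9 (0.24) was above 87.8% of such genes and that of Bst2 (0.22) above 87.1%, while Isg15 (0.27) was above 27.6% and Ifit2 (0.37) above 37.9%.

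Libraries differed in how many members stood above their group mean. In thymol replicate 2, 7 of the 8 genes were above their group mean, and in thymol replicate 1 and in DMSO replicates 1 and 5 it was 6. In thymol replicate 4 and in DMSO replicates 3 and 6, 2 genes were above it. Over the 28 pairs of members, the correlation of deviations from the group means in 12 libraries had a median of 0.13 and ran from -0.65 for Ifit1 and Bst2 to 0.58 for Ifit2 and Isg15. All members share the same libraries and depth.

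**Figure D4:**
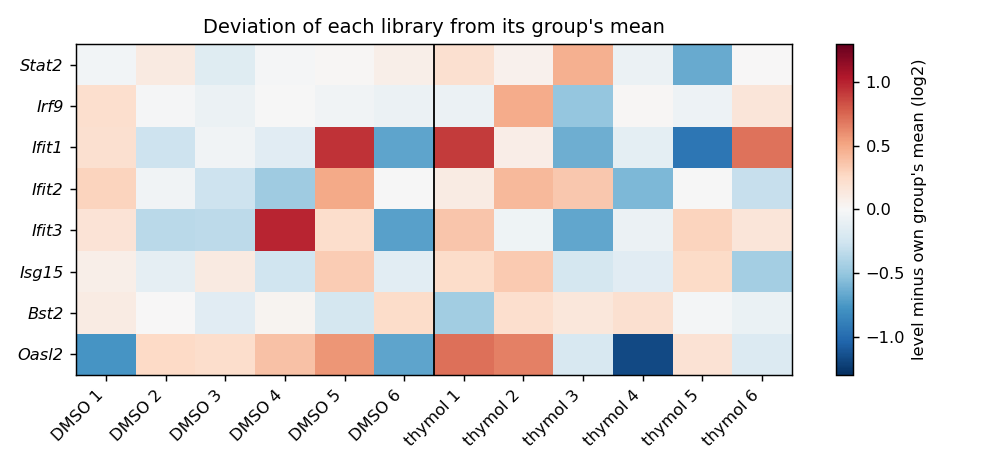
Deviation of each member from its own group mean in every library, in log2 units, drawn as a colour grid with libraries across and genes down. In thymol replicate 2, 7 of the 8 genes lay above their group mean, and in DMSO replicate 6 only 2 did.

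A pattern of the set was taken as the mean of the members' deviations, each member first divided by its SD of deviations. The 10 genes outside the set with the highest Pearson correlation with this pattern over the 12 libraries were Rpap3 (0.89), Gmpr2 (0.88), Rab12 (0.85), Zc2hc1a (0.85), Rpl7 (0.85), Ccnb2 (0.83), Cntln (0.83), Ldaf1 (0.83), Fcgr2b (0.82) and Srsf3 (0.82). None of them is in the interferon pathway lists (0 of 10). Those lists hold only 86 of the 10697 genes of the table outside the members, so 0 of 10 does not set the pathway apart. The 10 genes are the highest of 9363 genes compared over few libraries. Only genes with a mean of at least 3 log2 CPM were compared, so pathway genes below that level were left out.

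The rest of the pathway was read through lists of 147 genes by role, of which 94 were measured, the 8 members included. Of these, 44 were higher and 50 lower in thymol, 0 passed the threshold in limma or voom, and 10 had an unadjusted p under 0.05 (10.6%), 3 higher and 7 lower. With the members left out, 9 of 86 genes had an unadjusted p under 0.05 (10.5%), near the 11.8% of all genes.

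The interferon ligands were not measured (0 of 9). Of the 8 receptors and kinases measured, 5 were higher and 3 lower and 0 had an unadjusted p under 0.05. Jak1, the kinase bound to the receptor, was both the highest of this list and the one with the smallest p, at 8.40 in thymol and 8.49 in DMSO, a difference of -0.09 (SE 0.06).

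In the list of STAT and IRF factors, 4 of 8 (50%) had an unadjusted p under 0.05, 1 higher and 3 lower, beside 11.8% of all genes, and 0 passed after adjustment in limma or voom. The 3 lower ones were Stat2, already counted among the members, Irf1 and Irf3, so with the members left out it was 3 of 6. Irf8, a factor of myeloid cells and the highest of the list, was 6.91 in thymol and 6.67 in DMSO, a difference of 0.24 (SE 0.08, adjusted p = 0.079 in limma). It is also on the list of plasmacytoid dendritic cell markers, of which 2 of 8 were measured, Tcf4 and Irf8 itself. Their summed levels were 440 to 529 CPM in thymol and 464 to 497 CPM in DMSO, a sum that includes Irf8. The 14 macrophage markers summed to 17787 to 21265 CPM in thymol and 17605 to 19451 CPM in DMSO. Of the 14, 0 were called higher and 1 lower, beside 2.22% of all genes in both directions. The part of the macrophage markers in the difference of Irf8 was not tested. Irf1 (-0.27, adjusted p = 0.242 in limma) and Irf3 (-0.27, adjusted p = 0.321) are named after their values were seen.

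Of 60 listed antiviral effectors 39 were measured, of which 16 were higher and 23 lower. An unadjusted p under 0.05 was found for 3 of them (7.69%), all lower, beside 11.8% of all genes. Ifitm2, of a family of membrane proteins that restrict virus entry, had the smallest p of this list, at 6.88 in thymol against 7.13 in DMSO, a difference of -0.24 (SE 0.08, adjusted p = 0.079 in limma). Its limma adjusted p was 0.0405 with a replicate block, 0.0243 without thymol replicate 1 and 0.0489 without DMSO replicate 5. In the even-numbered libraries alone it was 0.0067 with a difference of -0.42, and in the odd-numbered ones 0.946 with a difference of -0.06. In every other alternative setting it was also above 0.05, for example 0.347 without a variance trend and 0.262 without thymol replicate 6. The other effectors with an unadjusted p under 0.05 were Samhd1, which depletes nucleotides, and Lgals3bp, a secreted glycoprotein. They are named after their values were seen, at -0.16 (SE 0.07) and -0.17 (SE 0.08). Ifitm3, a relative of Ifitm2 and the highest gene of the list, was 9.73 in thymol and 9.84 in DMSO.

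Of 19 listed nucleic acid sensors and adaptors 16 were measured, of which 5 were higher and 11 lower. An unadjusted p under 0.05 was found for 1 of the 16 (6.25%), beside 11.8% of all genes. That gene, Ifi204, a DNA sensor, was 3.30 in thymol and 2.82 in DMSO, a difference of 0.48 (SE 0.23, adjusted p = 0.378 in limma). The highest of the list, Unc93b1, which carries nucleic acid-sensing Toll-like receptors to endosomes, was 7.45 and 7.46.

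In the list of feedback regulators, 4 of 6 were higher and 2 lower, and 1 (16.7%) had an unadjusted p under 0.05, beside 11.8% of all genes. That gene was Socs3, an inhibitor of JAK kinases, at a difference of -0.30 (SE 0.12, adjusted p = 0.248 in limma). Ptpn6, a phosphatase and the highest of that list, differed by 0.10 (SE 0.08). In the ISG15 conjugation list, 3 of 5 genes were measured and 2 of the 3 were higher, with Uba7, the activating enzyme for ISG15, at a difference of 0.23 (SE 0.19). Of 15 listed interferon-inducible GTPases 6 were measured, 3 higher and 3 lower, with Gbp2 at -0.44 (SE 0.24) and Ifi47, the highest of the 6, at 0.02 (SE 0.17). In the list of immunoproteasome and peptide loading genes 5 of 8 were higher, and 1 (12.5%) had an unadjusted p under 0.05. That was Psmb8, a catalytic subunit, at 0.26 (SE 0.11, adjusted p = 0.273 in limma). B2m, the light chain of MHC class I, was 11.36 in thymol and 11.28 in DMSO. The genes of secreted products on the list were not measured (0 of 6).

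**Figure D5:**
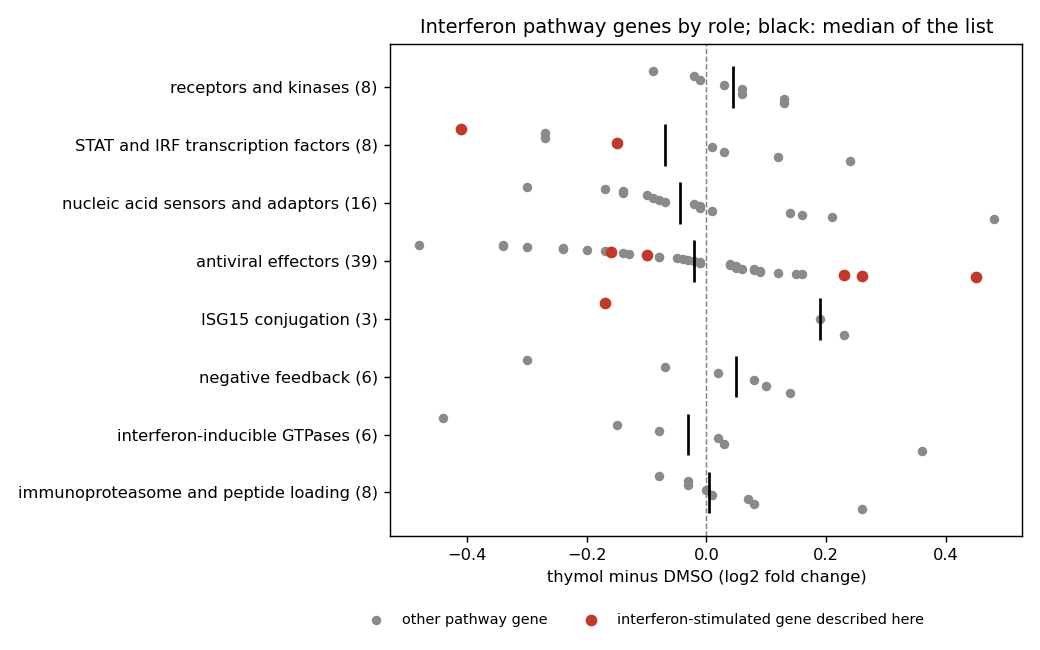
Difference of each measured gene of the interferon pathway lists, thymol minus DMSO, on the log2 scale (x axis), grouped by role with the number of genes, members in red, other genes in grey and the list median as a black bar. The list medians lie between -0.07 for the STAT and IRF factors and 0.19 for ISG15 conjugation.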

How the data were processed

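Total RNA of 12 libraries, 6 per group, was read by QuantSeq 3′ mRNA sequencing after PCR amplification without stated molecular identifiers, so depth covers counting error only. Per the submitters' notes, reads were aligned with STAR 2.5.3 to GRCm38 and counted per gene with HTSeq 0.6.1. The authors then dropped genes that did not reach 30 reads in 6 or more samples, scaled by the TMM method in edgeR and deposited log2 CPM values (counts scaled to library size). From the deposited log2 values, whole reads were recovered (100% of values below 200 reads within 0.02 of a whole number, prior of 1.93 reads in an average library), and 98.0% of genes met that filter. Totals were 5435985 to 9049796 reads.

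Groups came from the sample labels. Since the values are log2 and not counts, the main test was limma 3.58.1 in R 4.3.3 (lmFit, eBayes with a mean-variance trend, 2-sided) on all 10697 genes, thymol against DMSO, without covariates. The fit was also run on counts simulated from the means, spreads and depths of these libraries, with an outcome not given here. Voom on the recovered reads was an alternative, beside other pseudocounts, filters, scalings, replicate terms, odd- and even-numbered libraries apart (an earlier look at these data had shown a difference between them) and leaving out each library. Named genes were all members, from each pathway list genes past the threshold or otherwise the smallest p and the highest level, and the 10 most alike genes. The members and lists were chosen with earlier results of these data known. Gene coordinates are those of GENCODE vM21 and promoters those of RefSeq.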

Additional observations from a re-analysis of the deposited data

Results flagged for a closer look

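Irf9 in DMSO replicate 1 stood apart from the other DMSO libraries at 5.63 log2 CPM, with the nearest library at 5.41. The gap was 0.747 of the whole range of the 6 libraries, above Dixon's 95% critical value for groups of 6. This was 1 of 18 groups of libraries examined, and chance gives such a gap in about 1 of 20 groups.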

How the results depend on the processing

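Over 23 alternatives, 174 of 179 values of the members kept their direction and did not pass the threshold, and the lowest adjusted p of any member was 0.104, for Stat2 without thymol replicate 3. The exceptions in direction were Ifit1 at -0.36 and Oasl2 at 0.12 in odd-numbered libraries only, Irf9 at 0.10 in even-numbered libraries only, and Oasl2, which ran from -0.25 to 0.14 when single libraries were left out. The cause was not tested. The mean of the members differed by -0.238 with only the 3 genes of mean log2 at least 4, and by -0.061 to 0.052 without single libraries. Genes called among all genes were 57 without a variance trend, 70 in odd-numbered libraries, and 172 to 270 without single libraries, beside 238. Pathway genes called were 1, Ifitm2, with a replicate block and in even-numbered libraries, and 0 to 1 without single libraries (1 without thymol replicate 1 or DMSO replicate 5).

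Thymol and DMSO libraries share replicate numbers. Same-numbered libraries correlated by -0.0506 to 0.27 over 5394 genes, with 2 of 6 pairs above 0.1, replicate 1 at 0.27 and replicate 4 at 0.112. Of the 12 libraries, 3 were most alike to their own number. The labels do not say what the numbers mean, so whether some same-numbered libraries share a batch or culture cannot be told. With the replicate block 332 genes passed in all, beside 238 without it, and 0 members.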
